A study of Homo sapiens with 12 samples.

Results

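Serine, one-carbon and branched-chain amino acid enzymes, together with asparagine synthetase and the transcription factor ATF4, were followed with and without chidamide in 2 human cell lines of T-cell acute lymphoblastic leukaemia (T-ALL). The members were the rows of the deposited FPKM table whose symbol was ASNS, PHGDH, PSAT1, PSPH, SHMT1, SHMT2, MTHFD2, BCAT1, BCAT2 or ATF4. Of these 10 genes 9 were found among the 25146 rows, and all 9 passed the filter on low values that left 13840 genes for testing. SHMT1 was not analysed here.

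The groups were Molt-4 with chidamide, Molt-4 without chidamide, Jurkat with chidamide and Jurkat without chidamide, with 3 libraries each. Both are established T-ALL cell lines, and the letters M and J of the library titles were read as Molt-4 and Jurkat, the lines named in the growth protocol. Chidamide (tucidinostat) is a benzamide inhibitor of histone deacetylases and was given at 2 µM. The protocol states 48 h, but the labels give 48 h for replicate 1, 49 h for replicate 2 and 50 h for replicate 3 of both treated groups, so time and replicate cannot be told apart. Whether replicates were separate cultures is not stated, so a p-value here reflects spread between libraries that may be technical.

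Serine is made from the glycolytic intermediate 3-phosphoglycerate in 3 steps, by PHGDH, PSAT1 and PSPH. SHMT enzymes split serine into glycine and a carbon unit carried by folate, and in mitochondria MTHFD2 oxidises that unit on the way to formate, which feeds purine and thymidylate synthesis. BCAT1 in the cytosol and BCAT2 in mitochondria move the amino group of leucine, isoleucine and valine to a keto acid, giving glutamate. ASNS makes asparagine, an amino acid that leukaemic lymphoblasts with low ASNS must take up, which is the basis of asparaginase treatment. ATF4 is the transcription factor of the integrated stress response and of amino acid shortage, is controlled largely at translation, and activates ASNS, PHGDH, PSAT1, PSPH, SHMT2 and MTHFD2.

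The proximal promoters were searched for the response element that ATF4 binds with C/EBP partners, since several members are known as its targets. RefSeq windows of GRCh38.p14, from 250 bases before to 50 bases after an annotated start, were at hand for 6 members, namely ASNS, PHGDH, PSAT1, MTHFD2, BCAT1 and ATF4, with 12 windows in all. The letters TGATGNAAN on either strand occurred in 2 of these 12 windows, at 1 start each of ASNS and BCAT1, and in 1.94% of 14955 windows of all tested genes with an entry. The E-box letters CACGTG, the core bound by MYC with MAX, occurred in 3 of the 12 windows, at BCAT1 and in both of the largely overlapping ATF4 windows, and in 9.23% of all windows. The searched motifs do not overlap in these windows. The stretches below show the response element letters of the members that hold them, ASNS and BCAT1, and the E-box before the start of ATF4. They are given 5′ to 3′ on the gene's strand with the motif in capitals.
ASNS, chr7:97872438-97872506, minus strand, motif starting at -68: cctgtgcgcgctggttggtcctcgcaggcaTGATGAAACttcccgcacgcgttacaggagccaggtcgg
BCAT1, chr12:24949111-24949179, minus strand, motif starting at -48: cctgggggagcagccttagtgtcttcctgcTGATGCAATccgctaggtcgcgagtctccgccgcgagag
ATF4, chr22:39520447-39520512, plus strand, motif starting at -82: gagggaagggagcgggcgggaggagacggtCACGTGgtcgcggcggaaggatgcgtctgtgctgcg
No binding was measured, and a match is a description of the letters only. The windows of PHGDH, PSAT1 and MTHFD2 hold neither motif.

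The values are FPKM, which are scaled by gene length, so levels of different genes can be set side by side. Sequencing depth is unknown. FPKM summed to 698435 to 869059 per library, with 11643 to 13228 genes at 1 FPKM or more. Of 9 T-lineage markers (among them CD3D, CD7 and LCK) all 9 averaged at least 1 FPKM in every group, with summed levels of 760.07 to 2163.76 FPKM per library. The 5 B-lineage markers summed to 1.47 to 14.3 FPKM. The 5 myeloid markers summed to 68.4 to 68.9 FPKM in Molt-4 with chidamide, where LYZ averaged 62.9 FPKM, and to at most 3.25 FPKM elsewhere. The 4 epithelial markers summed to 66.1 to 213 FPKM in Molt-4 and to at most 1.57 FPKM in Jurkat. The 4 fibroblast markers summed to 34.3 to 46.9 FPKM with chidamide in either line and to at most 1.99 FPKM without it. Nearly all of that sum was COL1A1, at means of 34.03 FPKM in treated Molt-4 and 40.8 FPKM in treated Jurkat, while COL1A2 and DCN averaged at most 0.45 FPKM in any group. The part of these markers in the results was not tested. Fewer cells that express a gene and less RNA per cell cannot be told apart in such bulk samples.

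One library decides several results and is described first. Untreated Jurkat replicate 3 differed from its 2 fellow replicates by SDs of 0.332 and 0.337 in log2 ratios over all tested genes, against 0.233 to 0.269 for every other pair within a group. Several members were much higher in it than in those 2. ASNS was at 90.3 FPKM in this library, against 13.0 and 12.1 FPKM in untreated Jurkat replicates 1 and 2, a ratio of 7.17 to their mean that ranked 4 of 13840 genes on the log2(FPKM + 1) scale. The ratio of replicate 3 to that mean was 3.08 for PSAT1, 2.64 for MTHFD2 and 2.16 for PHGDH, at ranks 28, 40 and 80. It was 1.70 for PSPH, 1.41 for SHMT2, 1.41 for BCAT1, 1.28 for ATF4 and 0.918 for BCAT2. Thus 4 of 9 members were at least 2-fold above the other replicates on FPKM + 1, against 0.824% of all tested genes, or 114 genes. Outside the members and the lists below, these 114 genes are not described here.

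Of the 26 tested genes in a list of other ATF4 targets and genes of the integrated stress response, 11 were at least 2-fold higher in untreated Jurkat replicate 3 on the same scale. The median log2 ratio was 0.83 for this list and 0.74 for the members, against 0.02 over all tested genes. CHAC1, which degrades glutathione, was at 44.8 FPKM in replicate 3 and averaged 3.52 FPKM in replicates 1 and 2. The pseudokinase gene TRIB3 was at 44.3 and 17.4 FPKM, and the stress-induced transcription factor gene DDIT3 at 22.3 and 11.04 FPKM, in the same order. The lists of other serine and one-carbon genes, of branched-chain breakdown and of asparagine, glutamine and proline genes had median log2 ratios of -0.03, 0.01 and 0.00. In these lists 2 of 27, 0 of 20 and 0 of 15 tested genes were at least 2-fold higher on that scale. The 2 were CBS and CTH, at 2.52 and 2.79 times the mean of replicates 1 and 2. CTH is also in the list with ATF4 targets. The labels give no difference between this library and the other untreated ones. The members' responses to chidamide in Jurkat are therefore given with all libraries and without this one, as are other values that it moves by over 1.5 times. This library was set apart on values that include those of the members, and without it 2 untreated Jurkat libraries remain. SEs and p-values without it depend on that choice and are descriptive.

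**Figure D1:**
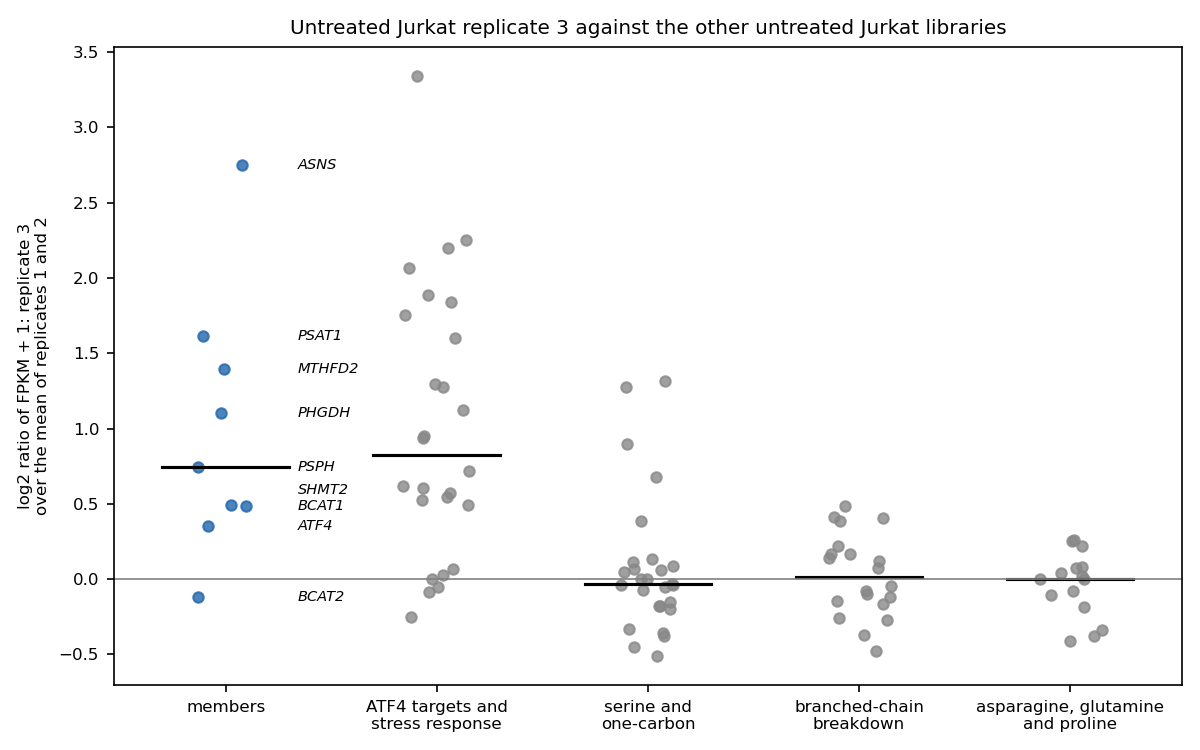
Each point is a gene, placed by the log2 ratio of FPKM + 1 in untreated Jurkat replicate 3 over the mean of untreated Jurkat replicates 1 and 2, with gene lists on the x axis and medians as black lines. ASNS (2.75), PSAT1 (1.61), MTHFD2 (1.40) and PHGDH (1.11) lie high among the members, the list with ATF4 targets is spread upward, and the medians of the other lists are near 0.

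**Figure D2:**
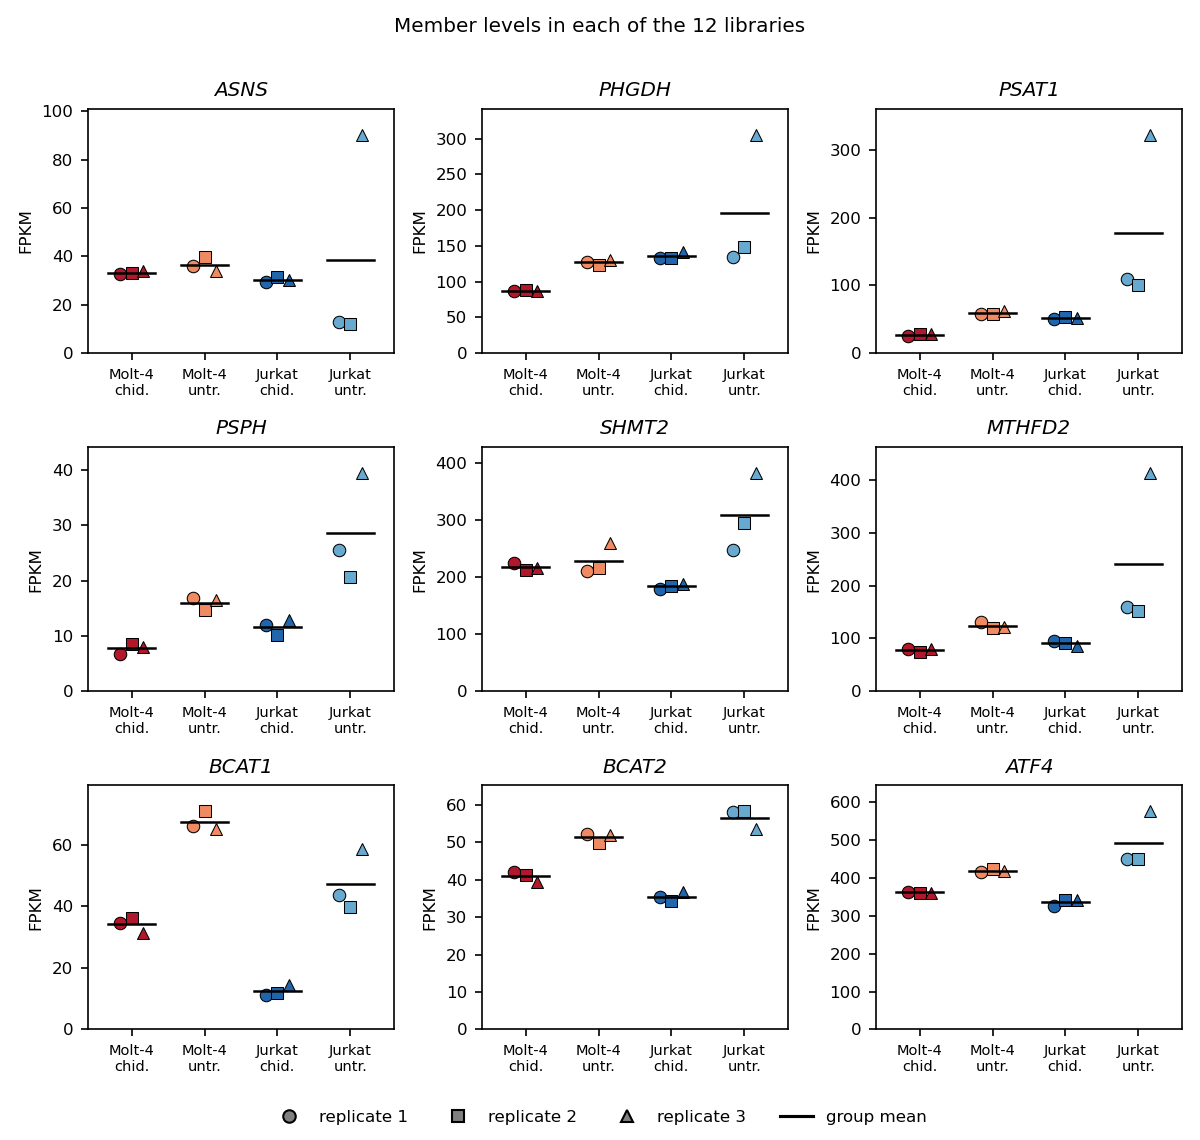
FPKM of each member in every library, with 1 symbol per replicate number, the 4 groups on the x axis and the group mean as a line. The triangle of untreated Jurkat (replicate 3) lies far above its fellows for ASNS, PSAT1, MTHFD2 and PHGDH, while the libraries of the other groups lie close together.

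In Jurkat most members fell with chidamide, led by BCAT1 and PSAT1. A gene is referred to as called where the limma adjusted p over all genes tested was under 0.05. With all libraries in the fit 7 of 9 members were called, against 56.3% of all genes tested. All 7 were lower, against 25.4% of all genes, and 0 higher, against 30.9%. Their median log2 change was -0.72, beside 0.04 over all tested genes. The treated and untreated libraries did not overlap for 7 members, all of them lower, against 60.7% of all genes in either direction. Without untreated Jurkat replicate 3 8 members were called, against 58.5% of all genes: 7 lower, against 26.0%, and ASNS higher, against 32.6%.

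ATF4 was the most abundant member. It was at 325, 343 and 341 FPKM in Jurkat with chidamide, against 449, 450.5 and 575 FPKM without it. All treated libraries lay below all untreated ones. The log2 change of ATF4 was -0.54 ± 0.078 (SE, adjusted p = 8.98e-05), and -0.42 ± 0.033 without untreated replicate 3 (adjusted p = 1.09e-06). The treated mean was 0.683 times the untreated mean.

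The 3 enzymes of serine synthesis did not move by the same amount. PHGDH, which catalyses the first step, was at 133.3, 133.2 and 141 FPKM in treated Jurkat, against 135, 148 and 305 FPKM in untreated Jurkat. The groups overlapped, and the difference of -0.42 ± 0.22 was not called (adjusted p = 0.122). Without untreated replicate 3 it was -0.06 ± 0.049 (adjusted p = 0.363, 95% confidence interval -0.16 to 0.05). Without untreated replicate 1, which leaves replicate 3 in, PHGDH was called lower (-0.64, adjusted p = 0.0240).

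PSAT1, the transaminase of the second step, was at 51.1, 53.3 and 52.5 FPKM in treated Jurkat, against 110, 99.9 and 323 FPKM in untreated Jurkat. Every treated library was below every untreated one. PSAT1 fell by 1.53 on the log2 scale (SE 0.32, adjusted p = 0.00140). Without untreated replicate 3 the change was -0.99 ± 0.061 (adjusted p = 1.67e-07), and the treated mean was 0.499 times that of the remaining untreated libraries.

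PSPH, the phosphatase that releases serine, had the lowest mean of the members in every group with all libraries, but in untreated Jurkat replicates 1 and 2 ASNS was lower. It was at 11.9, 10.2 and 12.9 FPKM in treated Jurkat, against 25.5, 20.7 and 39.4 FPKM in untreated Jurkat, with no overlap. PSPH fell by 1.18 on the log2 scale (SE 0.18, adjusted p = 0.000174), and the change was -0.93 ± 0.13 without untreated replicate 3 (adjusted p = 0.000100). In the remaining libraries the treated mean was 0.499 times the untreated mean for PSAT1, 0.505 times for PSPH and 0.961 times for PHGDH.

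The mitochondrial one-carbon enzymes fell in Jurkat. SHMT2, the mitochondrial serine hydroxymethyltransferase, was at 179, 184 and 188 FPKM with chidamide, against 247, 294 and 382 FPKM without it. No treated library reached the lowest untreated one. Its log2 change was -0.72 ± 0.13 (adjusted p = 0.000383), and -0.55 ± 0.089 without untreated replicate 3 (adjusted p = 0.000288). MTHFD2, the mitochondrial methylene-tetrahydrofolate dehydrogenase, was at 94.2, 92.2 and 85.6 FPKM with chidamide, against 159.6, 153 and 413 FPKM without it. These groups did not overlap either. MTHFD2 changed by -1.24 ± 0.28 (adjusted p = 0.00218), and by -0.78 ± 0.058 without untreated replicate 3 (adjusted p = 7.33e-07).

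ASNS was the member whose reading turned on 1 library. It was at 29.3, 31.6 and 30.2 FPKM in treated Jurkat, against 13.0, 12.1 and 90.3 FPKM in untreated Jurkat. The treated libraries agree closely and lie between the untreated ones. With all libraries the log2 difference was 0.29 ± 0.54 and was not called (adjusted p = 0.678, 95% confidence interval -0.88 to 1.47). The treated mean in FPKM was 0.790 times the untreated one, so the 2 scales differ in direction. Without untreated replicate 3 ASNS rose by 1.21 ± 0.071 (adjusted p = 1.25e-07), with a treated mean 2.42 times that of replicates 1 and 2. Without untreated replicate 1 or 2 the sign turned (-0.14 and -0.19, adjusted p = 0.864 and 0.804).

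Both branched-chain transaminase genes fell in Jurkat, BCAT1 far more than BCAT2. BCAT1 was at 11.2, 11.98 and 14.4 FPKM in treated Jurkat, against 43.5, 39.6 and 58.5 FPKM in untreated Jurkat. The highest treated library was well below the lowest untreated one. The log2 change of BCAT1 was -1.82 ± 0.13 (adjusted p = 2.30e-07), the largest among the members in this line, and the treated mean was 0.265 times the untreated one. BCAT2 was at 35.3, 34.4 and 36.6 FPKM in treated Jurkat, against 58.1, 58.3 and 53.4 FPKM in untreated Jurkat. Untreated replicate 3 was the lowest of its group here, not the highest. BCAT2 changed by -0.66 ± 0.055 (adjusted p = 8.75e-07). Without untreated replicate 3 the changes were -1.66 ± 0.098 for BCAT1 and -0.70 ± 0.050 for BCAT2 (adjusted p = 1.26e-07 and 5.53e-07).

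The ratio of BCAT1 to BCAT2 within a library does not depend on the scaling of the library. This ratio of FPKM values was 0.318, 0.348 and 0.393 in treated Jurkat and 0.749, 0.680 and 1.09 in untreated Jurkat. In Molt-4 it was 0.826, 0.877 and 0.799 with chidamide and 1.26, 1.42 and 1.26 without it. BCAT1 was above BCAT2 in every untreated Molt-4 library and below it in every treated library of both lines.

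The same question was asked in Molt-4. Here 5 of 9 members were called, against 60.0% of all genes tested. All 5 were lower, against 24.6% of all genes, and 0 higher, against 35.4%. PSAT1, PSPH and BCAT1 fell to 0.459, 0.485 and 0.507 times the untreated mean, and BCAT2 and ATF4 to 0.797 and 0.863 times. The median log2 change of the members was -0.53, beside 0.08 over all tested genes. Treated and untreated libraries did not overlap for 7 members, all lower, against 67.3% of all genes in either direction. The 2 members without overlap that were not called were PHGDH and MTHFD2, and the fits in which both were called are given below.

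ATF4 was at 363, 359.9 and 361 FPKM in treated Molt-4, against 416, 423 and 417 FPKM in untreated Molt-4. The groups lay apart, and the libraries of each were close together. The log2 change of ATF4 was -0.21 ± 0.078 (adjusted p = 0.0332). The call was lost without any 1 of the 6 Molt-4 libraries (adjusted p between 0.0629 and 0.0802), with no filter on low values (0.0504) and under quantile normalization (-0.11, adjusted p = 0.427). Without untreated Jurkat replicate 3 the SE fell to 0.029 (adjusted p = 8.14e-05).

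All 3 serine synthesis enzymes were lower in each treated Molt-4 library than in each untreated one. PHGDH was at 87.3, 88.1 and 86.1 FPKM in treated Molt-4, against 128, 123 and 129.7 FPKM in untreated Molt-4. Its log2 difference of -0.53 ± 0.22 missed the threshold with all libraries in 1 fit (adjusted p = 0.0534). That fit shares 1 estimate of the spread over the 4 groups, and PHGDH varied by 48.4% of its mean in untreated Jurkat, against 1.125% and 2.96% in treated and untreated Molt-4. With the Molt-4 libraries alone the adjusted p was 2.49e-05, and without untreated Jurkat replicate 3 it was 1.27e-06, with the same difference. PHGDH was also called without untreated Jurkat replicate 1 or 2 (0.0289 and 0.0465), with median-of-ratios scaling (0.0303) and with a minimum of 5 FPKM (0.0499).

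PSAT1 was at 25.8, 27.4 and 28.3 FPKM in treated Molt-4, against 57.6, 57.8 and 62.4 FPKM in untreated Molt-4. It fell by 1.10 on the log2 scale (SE 0.32, adjusted p = 0.0103), to 0.459 times the untreated mean, the largest change among the members in this line. PSPH was at 6.67, 8.58 and 8.07 FPKM in treated Molt-4, against 16.9, 14.7 and 16.5 FPKM in untreated Molt-4. It fell by 0.96 on the log2 scale (SE 0.18, adjusted p = 0.000743). In neither gene did a treated library come near the untreated ones.

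SHMT2 and MTHFD2 differed in Molt-4. SHMT2 was at 224, 212 and 215 FPKM in treated Molt-4, against 211, 215 and 259 FPKM in untreated Molt-4, with overlap. Its log2 difference of -0.07 ± 0.13 was not called (adjusted p = 0.664, 95% confidence interval -0.34 to 0.21). MTHFD2 was at 80.2, 74.8 and 80.2 FPKM in treated Molt-4, against 131, 119.8 and 121 FPKM in untreated Molt-4, with no overlap. Its log2 difference was -0.65 ± 0.28 (adjusted p = 0.0589), and the adjusted p was 4.30e-05 with the Molt-4 libraries alone and 9.09e-07 without untreated Jurkat replicate 3. It was also under the threshold without untreated Jurkat replicate 1 or 2 (0.0462 and 0.0382) and with median-of-ratios scaling (0.0382). MTHFD2 varied by 61.3% of its mean in untreated Jurkat, against 3.97% and 4.93% in treated and untreated Molt-4.

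ASNS was at 32.6, 33.2 and 33.9 FPKM in treated Molt-4, against 36.1, 39.7 and 33.8 FPKM in untreated Molt-4. The groups overlapped at their edges and the log2 difference was -0.13 ± 0.54 (adjusted p = 0.851). Without untreated Jurkat replicate 3 the 95% confidence interval was -0.27 to 0.01 (adjusted p = 0.0975). BCAT1 was at 34.7, 36.3 and 31.4 FPKM in treated Molt-4, against 66.1, 70.8 and 65.1 FPKM in untreated Molt-4. It fell by 0.96 on the log2 scale (SE 0.13, adjusted p = 4.08e-05), to 0.507 times the untreated mean. BCAT2 was at 42.0, 41.4 and 39.3 FPKM in treated Molt-4, against 52.3, 49.8 and 51.8 FPKM in untreated Molt-4. Its change was -0.32 ± 0.055 (adjusted p = 0.000294).

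**Figure D3:**
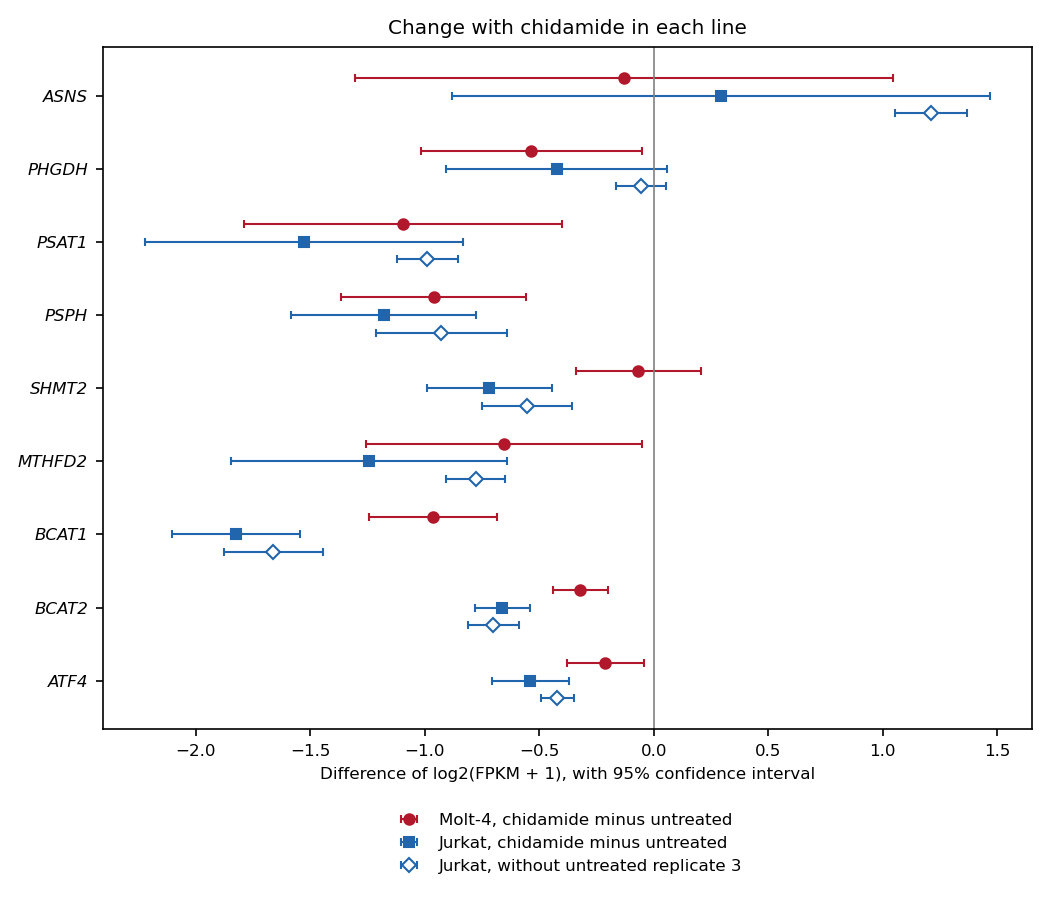
Change of each member with chidamide as a difference of log2(FPKM + 1), with 95% confidence intervals, in Molt-4 (circles), Jurkat (squares) and Jurkat without untreated replicate 3 (open diamonds). Leaving out that library moves ASNS from 0.29 to 1.21 and PHGDH from -0.42 to -0.06, while BCAT1 and BCAT2 stay close to their values.

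Whether the lines differed in their response was tested as the Molt-4 change minus the Jurkat change, so a positive value means a smaller fall in Molt-4 for members that fell in Jurkat. In all 4 of 9 members were called, against 31.9% of all genes. All 4 were positive, against 19.8% of all genes, and 0 negative, against 12.1%. BCAT1 differed by 0.86 ± 0.18 (adjusted p = 0.00339), SHMT2 by 0.65 ± 0.18 (adjusted p = 0.0147) and BCAT2 by 0.34 ± 0.077 (adjusted p = 0.00536). These calls were kept without untreated Jurkat replicate 3, with differences of 0.70, 0.48 and 0.38 (adjusted p = 0.00193, 0.00913 and 0.00132). ATF4 differed by 0.33 ± 0.11 (adjusted p = 0.0395). The ATF4 call was lost without any 1 of the treated Jurkat or the 6 Molt-4 libraries (adjusted p between 0.0605 and 0.0879), with no filter (0.0594), with equal totals without 7SL RNA (0.129) and under quantile normalization (0.206). The ATF4 difference was 0.21 without untreated Jurkat replicate 3 (adjusted p = 0.00382).

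ASNS and PHGDH were called when untreated Jurkat replicate 3 was left out, and 6 members were then called, against 35.7% of all genes: 4 positive, against 21.1%, and 2 negative, against 14.6%. ASNS then differed by -1.34 ± 0.095 (adjusted p = 2.49e-06), being called higher with chidamide in Jurkat and not called in Molt-4. PHGDH differed by -0.48 ± 0.066 (adjusted p = 0.000254), being called lower in Molt-4 and not called in Jurkat. With all libraries these differences were -0.42 ± 0.76 and -0.11 ± 0.31 (adjusted p = 0.714 and 0.824). PSAT1, PSPH and MTHFD2 were not called either way. Their differences were 0.43, 0.22 and 0.59 with all libraries (adjusted p = 0.509, 0.570 and 0.284), and -0.11, -0.03 and 0.12 without that library, with 95% confidence intervals of -0.29 to 0.07, -0.42 to 0.35 and -0.05 to 0.29. These differences and the separate responses use the same libraries.

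Without treatment 7 of 9 members were called between the lines, against 65.3% of all genes, and 7 did not overlap, against 66.7%, so these shares were near those over all genes. With only the untreated libraries in the fit 3 members were called, and the share of all genes called in that fit is not given here. BCAT1 was higher in untreated Molt-4, at 67.3 ± 3.04 FPKM, than in untreated Jurkat, at 47.2 ± 9.96 FPKM (SD, n = 3 each; log2 difference 0.52 ± 0.13, adjusted p = 0.00334). It was the only member called higher, against 27.9% of all genes. The other 6 were lower, against 37.5% of all genes, and the largest difference was that of PSAT1, at 59.2 ± 2.71 FPKM in untreated Molt-4 and 178 ± 126 FPKM in untreated Jurkat (log2 difference -1.35 ± 0.32, adjusted p = 0.00256). PSPH (-0.75 ± 0.18, adjusted p = 0.00350), MTHFD2 (-0.80 ± 0.28, adjusted p = 0.0236), SHMT2 (-0.41 ± 0.13, adjusted p = 0.0123), ATF4 (-0.22 ± 0.078, adjusted p = 0.0244) and BCAT2 (-0.14 ± 0.055, adjusted p = 0.0414) were lower as well. The calls of SHMT2, MTHFD2, ATF4 and BCAT2 were lost with only the untreated libraries in the fit (adjusted p = 0.0718, 0.105, 0.104 and 0.0819). Those of ATF4 and BCAT2 were also lost with median-of-ratios scaling (adjusted p = 0.203 and 0.715). Leaving out 1 library ended the call of BCAT2 for 7 libraries (adjusted p between 0.0533 and 0.127), of ATF4 for untreated Molt-4 replicates 1 and 3 (0.0576 and 0.0536) and of MTHFD2 for untreated Molt-4 replicates 2 and 3 (0.0586 and 0.0565).

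Without untreated Jurkat replicate 3 the difference of PSAT1 was -0.81 ± 0.061 (adjusted p = 4.73e-07) and that of MTHFD2 -0.33 ± 0.058 (adjusted p = 0.000413). The differences of PSPH, SHMT2 and ATF4 were then -0.50, -0.24 and -0.10 (adjusted p = 0.00577, 0.0326 and 0.0162), and those of BCAT1 and BCAT2 were 0.68 and -0.18 (adjusted p = 9.32e-05 and 0.00878). ASNS was then higher in untreated Molt-4, 2.90 times the mean of untreated Jurkat replicates 1 and 2 (log2 difference 1.46 ± 0.071, adjusted p = 1.31e-08). With all libraries the difference of ASNS was 0.55 ± 0.54 (adjusted p = 0.392), while its mean FPKM in untreated Molt-4 was 0.949 times that in untreated Jurkat. PHGDH was not called with all libraries (-0.52 ± 0.22, adjusted p = 0.0537), and its difference was -0.15 without that library (adjusted p = 0.0172). Without that library all 9 members were called, against 64.9% of all genes, with 2 higher, against 28.1%, and 7 lower, against 36.8%.

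With chidamide in both lines 5 of 9 members were called, against 69.2% of all genes, and 9 did not overlap, against 75.8%. Of the members 2 were higher in Molt-4 than in Jurkat, against 31.7% of all genes, and 3 lower, against 37.5%. BCAT1 was at 34.1 ± 2.52 FPKM in treated Molt-4 and 12.5 ± 1.65 FPKM in treated Jurkat (log2 difference 1.38 ± 0.13, adjusted p = 1.13e-06), and BCAT2 at 40.9 ± 1.44 and 35.4 ± 1.10 FPKM in the same order (0.20 ± 0.055, adjusted p = 0.00565). The BCAT2 call was lost with equal totals without 7SL RNA (0.06, adjusted p = 0.337). The 3 lower members were the serine synthesis enzymes. PHGDH was at 87.2 ± 0.980 FPKM in treated Molt-4 and 136 ± 4.35 FPKM in treated Jurkat (-0.63 ± 0.22, adjusted p = 0.0223), PSAT1 differed by -0.92 ± 0.32 (adjusted p = 0.0216) and PSPH by -0.53 ± 0.18 (adjusted p = 0.0226). These calls were lost when 1 of certain treated libraries was left out, with adjusted p between 0.0505 and 0.0584 for PHGDH, between 0.0514 and 0.0569 for PSAT1 and between 0.0567 and 0.0858 for PSPH. Without untreated Jurkat replicate 3, which is in neither group but adds to the shared spread, the adjusted p was 1.99e-07 for PHGDH, 5.02e-08 for PSAT1 and 0.00166 for PSPH. ASNS was at 33.2 ± 0.610 FPKM in treated Molt-4 and 30.4 ± 1.16 FPKM in treated Jurkat and was not called (adjusted p = 0.846).

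Ordered by level, BCAT1 was highest in untreated Molt-4, then in untreated Jurkat, treated Molt-4 and treated Jurkat, and no 2 of these groups overlapped. SHMT2 was highest in untreated Jurkat, then in untreated Molt-4, treated Molt-4 and treated Jurkat, and only treated Jurkat lay apart from its neighbour in that order. For PSAT1 the order was untreated Jurkat, untreated Molt-4, treated Jurkat and treated Molt-4, again without overlap. For ASNS the 3 groups other than untreated Jurkat lay between 29.3 and 39.7 FPKM.

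The wider pathways were described with lists of related genes, whose counts stand beside 30.9% higher and 25.4% lower over all genes in Jurkat, and 35.4% higher and 24.6% lower in Molt-4. Of 27 tested genes in a list of other serine and one-carbon genes, 5 were called higher and 15 lower in Jurkat, and 5 higher and 13 lower in Molt-4. The median log2 change of that list was -0.29 in Jurkat and -0.23 in Molt-4, beside 0.04 and 0.08 over all genes tested. MTHFD1L, which completes formate production in mitochondria, fell in both lines, to 13.6 ± 0.642 FPKM in treated Jurkat against 48.7 ± 8.14 FPKM in untreated Jurkat (log2 change -1.76 ± 0.10, adjusted p = 3.89e-08). In Molt-4 it was at 14.6 ± 1.17 FPKM with chidamide and 44.1 ± 1.01 FPKM without it (-1.54 ± 0.10, adjusted p = 8.81e-08). The reduced folate carrier gene SLC19A1 fell by 1.40 in Jurkat and by 1.15 in Molt-4 on the log2 scale (adjusted p = 2.03e-06 and 9.52e-06). AHCY, which hydrolyses S-adenosylhomocysteine, fell by 0.84 in Molt-4 (adjusted p = 6.57e-08) and was also called lower in Jurkat (log2 change -1.15, adjusted p = 6.69e-09). CBS, the first enzyme of transsulfuration, fell by 1.86 in Jurkat (adjusted p = 9.81e-05) and changed by -1.42 without untreated replicate 3 (adjusted p = 7.49e-07).

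Members of that list that rose included SFXN3, a relative of the mitochondrial serine carrier SFXN1. SFXN3 was at 16.5 ± 0.815 FPKM in treated Molt-4 and 1.98 ± 0.186 FPKM in untreated Molt-4 (log2 change 2.56 ± 0.080, adjusted p = 2.26e-10), and it rose by 0.61 ± 0.080 in Jurkat (adjusted p = 4.51e-05). In Jurkat the glycine decarboxylase gene GLDC rose by 0.43 (adjusted p = 0.0270). The GLDC call was lost without untreated replicate 3 (0.28, adjusted p = 0.105), without treated replicate 3 (0.0850), with the Jurkat libraries alone (0.0612) and under quantile normalization (0.279). In Molt-4 the folylpolyglutamate hydrolase gene GGH rose by 0.67 (adjusted p = 1.80e-05) and the serine racemase gene SRR by 0.66 (adjusted p = 0.00840, and 0.0830 under quantile normalization). GGH was also called higher in Jurkat (0.23, adjusted p = 0.0282), a call lost without untreated replicate 3 (0.17, adjusted p = 0.0895).

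A list of 20 genes covers branched-chain keto acid breakdown, which follows the step of BCAT1 and BCAT2. Of these genes 2 were higher and 10 lower in Jurkat, and 3 higher and 7 lower in Molt-4. Their median log2 change was -0.17 in Jurkat and -0.10 in Molt-4. Over all genes 30.9% were higher and 25.4% lower in Jurkat, and 35.4% and 24.6% in Molt-4. In either direction 56.3% and 60.0% of all genes were called. The list also holds BCKDK and PPM1K, which regulate this breakdown and are not steps of it. BCKDK is among the 10 lower genes in Jurkat (log2 change -0.21, adjusted p = 0.0127), and PPM1K was not called there. MCCC2, a subunit of the carboxylase of leucine breakdown, fell in both lines, by 1.04 in Jurkat and by 0.92 in Molt-4 (adjusted p = 3.89e-07 and 8.40e-07). ACAT1 and PCCB fell in Jurkat by 1.31 and 1.03 (adjusted p = 6.41e-08 and 1.73e-08), and IVD and MCCC1 in Molt-4 by 0.76 and 0.74 (adjusted p = 9.87e-06 and 0.000285). IVD and MCCC1 were also called lower in Jurkat (log2 changes -0.91 and -0.56, adjusted p = 2.36e-06 and 0.00238). DBT in Jurkat and HIBCH in Molt-4 rose by 0.25 and 0.40 (adjusted p = 0.0348 and 0.00252), and the DBT call was lost without any 1 of 4 Jurkat libraries (adjusted p between 0.0779 and 0.111), with median-of-ratios scaling (0.0533) and under quantile normalization (0.430).

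Genes of the list of other ATF4 targets and of the integrated stress response went both ways. Of 26 tested, 4 were higher and 14 lower in Jurkat (8 and 14 without untreated replicate 3, with the median log2 change at -0.53 and -0.23). In Molt-4 6 were higher and 9 lower, with a median of -0.07. The shares over all genes were 30.9% higher and 25.4% lower in Jurkat (32.6% and 26.0% without that replicate), and 35.4% and 24.6% in Molt-4. The list also holds the eIF2 alpha kinases, which act before ATF4 and are not its targets. Of these EIF2AK1, EIF2AK2 and EIF2AK4 are among the 14 lower genes in Jurkat, and EIF2AK2 and EIF2AK4 among the 9 in Molt-4. The lower ones in Jurkat were led by genes that are high in untreated replicate 3. CHAC1 was at 1.23 ± 0.361 FPKM in treated Jurkat and 17.3 ± 23.8 FPKM in untreated Jurkat (log2 change -2.14 ± 0.67, adjusted p = 0.0157), and its change was -1.03 without that library (adjusted p = 0.000329). GPT2, an alanine transaminase, fell by 1.77 in Jurkat and by 1.41 in Molt-4 (adjusted p = 0.00678 and 0.0215), and the Jurkat change was -1.02 without that library. STC2, which encodes a secreted glycoprotein, fell by 1.46 in Jurkat (adjusted p = 0.00918), and its change was -0.84 without untreated replicate 3. CHAC1, GPT2 and STC2 were not called with only the Jurkat libraries in the fit (adjusted p = 0.110, 0.0700 and 0.0738).

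Genes of that list that rose included PPP1R15A, which directs dephosphorylation of the translation factor eIF2 alpha. In Jurkat it was at 17.2 ± 0.391 FPKM with chidamide and 8.77 ± 2.06 FPKM without it (log2 change 0.92 ± 0.12, adjusted p = 3.11e-05). DDIT4, an inhibitor of mTORC1 signalling, rose in both lines, by 0.58 in Jurkat and by 1.36 in Molt-4 (adjusted p = 2.28e-05 and 1.12e-08). The amino acid transporter gene SLC38A2 rose by 0.40 in Jurkat (adjusted p = 0.0191), a call lost without untreated replicate 1 or 2 or treated replicate 2 (adjusted p between 0.0669 and 0.0851) and in a fit of the Jurkat libraries alone (0.115). Without untreated replicate 3 SLC38A2 rose by 0.60 (adjusted p = 2.13e-06). In Molt-4 the stress transcription factor genes ATF3 and CEBPB rose, ATF3 to 30.2 ± 4.86 FPKM against 6.94 ± 0.157 FPKM in untreated Molt-4 (1.96 ± 0.24, adjusted p = 2.29e-05), and CEBPB by 1.43 ± 0.32 (adjusted p = 0.00220). In Jurkat neither ATF3 nor CEBPB was called with all libraries (log2 changes 0.003 and 0.25). Without untreated Jurkat replicate 3 both were called higher there (0.38 and 0.78, adjusted p = 0.0199 and 2.13e-05). VLDLR and the arginine transporter gene SLC7A1 fell in Molt-4 by 1.13 and 0.90 (adjusted p = 0.0336 and 6.30e-05). SLC7A1 was also called lower in Jurkat (log2 change -0.76, adjusted p = 0.000272). The VLDLR call was lost without any 1 of 5 Molt-4 libraries (adjusted p between 0.0639 and 0.0926) and with no filter (0.0591), and that of GPT2 in Molt-4 without any 1 of 4 (between 0.0517 and 0.0689). Without untreated Jurkat replicate 3, which adds to the shared spread, the Molt-4 changes of both stayed the same. The adjusted p was then 5.19e-06 for VLDLR and 5.82e-05 for GPT2.

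In a list of asparagine, glutamine and proline genes 4 of 15 tested were higher and 6 lower in Jurkat, and 4 higher and 5 lower in Molt-4, with median log2 changes of 0.07 and 0.12. Among all genes 30.9% were higher and 25.4% lower in Jurkat, and 35.4% and 24.6% in Molt-4. Those called in either direction made up 56.3% and 60.0%. The glutamine synthetase gene GLUL was at 457 ± 21.6 FPKM in treated Molt-4 and 306 ± 12.1 FPKM in untreated Molt-4 (0.58 ± 0.060, adjusted p = 4.87e-06) and rose by 0.19 ± 0.060 in Jurkat (adjusted p = 0.0160, and 0.0541 without treated replicate 3). ALDH4A1 of proline breakdown and OAT, the ornithine aminotransferase, rose in both lines (log2 changes 0.59 and 0.32 in Jurkat, 0.28 and 0.29 in Molt-4). With the Jurkat libraries alone GLUL and OAT were not called there (adjusted p = 0.0507 and 0.0622). Without untreated replicate 3 the changes of OAT and GLUL in Jurkat were 0.21 and 0.13 (adjusted p = 0.0127 and 0.0403). The glutamate dehydrogenase gene GLUD1 fell by 0.76 in both Jurkat and Molt-4 (adjusted p = 3.18e-06 and 2.77e-06). PYCR1, the last enzyme of proline synthesis, fell by 1.45 and ASRGL1, an asparaginase, by 0.88 in Jurkat (adjusted p = 1.03e-06 and 2.44e-05). GOT2, the mitochondrial aspartate transaminase, and ALDH18A1, which starts proline synthesis, fell by 0.70 and 0.68 in Molt-4 (adjusted p = 1.04e-07 and 1.29e-06). GOT2 was also called lower in Jurkat (log2 change -0.74, adjusted p = 1.01e-07).

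**Figure D4:**
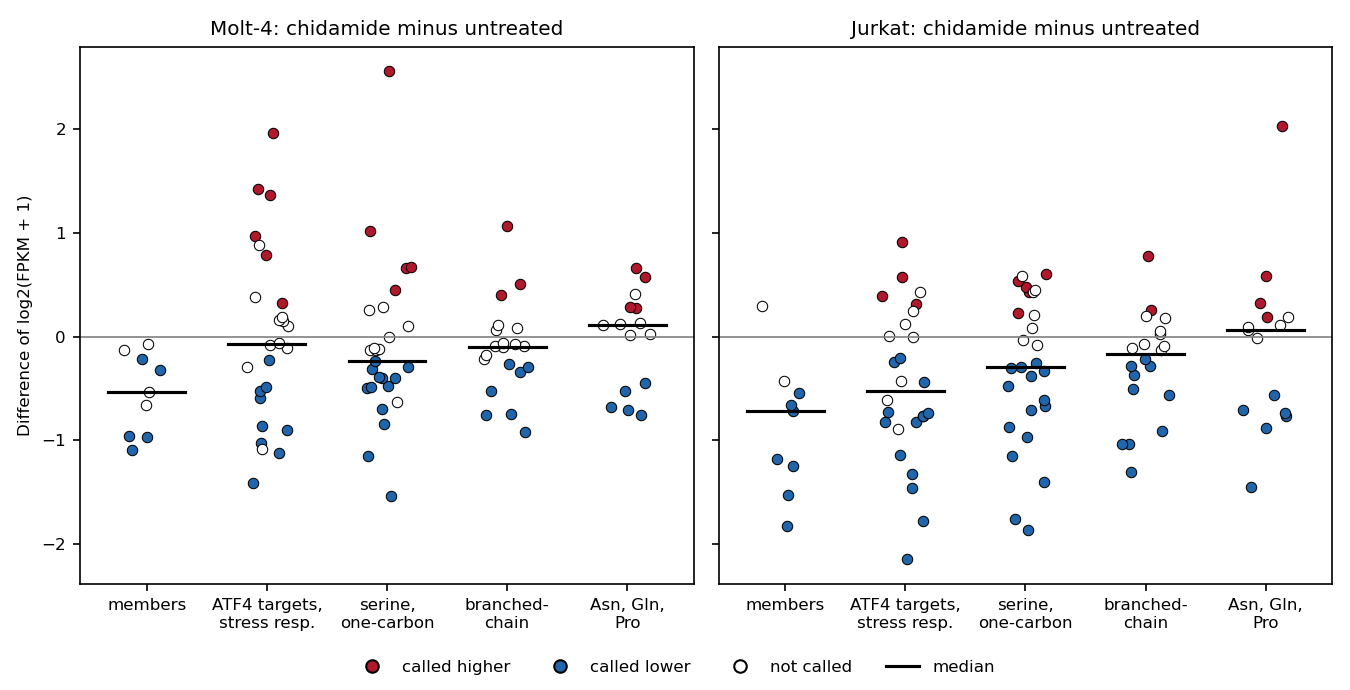
Change with chidamide of every tested gene of the members and of 4 related lists, as differences of log2(FPKM + 1), in Molt-4 (left) and Jurkat (right), coloured by call, with medians as lines. The members' medians (-0.53 and -0.72) lie below those of the related lists, and no member was called higher with all libraries in the fit.

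The member with the largest change was BCAT1 in Jurkat and PSAT1 in Molt-4. Over the 12 libraries the genes most alike to BCAT1 in log2(FPKM + 1) were GRK6, DNAJC9 and CLNS1A (Pearson r of 0.985, 0.984 and 0.983). Those most alike to PSAT1 were SPNS3, RPL5 and GSG2 (0.9949, 0.9747 and 0.9743). SPNS3 averaged 1.94 FPKM in treated Molt-4, 8.14 FPKM in untreated Molt-4, 5.76 FPKM in treated Jurkat and 45.8 FPKM in untreated Jurkat. These correlations describe 4 groups that share their treatment and line, and carry no test.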

How the data were processed

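RNA libraries of 12 samples in 4 groups of 3 were analysed. The authors deposited FPKM per gene symbol, rounded to 2 decimals. Per the submitters' processing notes STAR, HTSeq and DESeq2 were used with hg19. Versions, the order of steps, strand setting and how FPKM was obtained are not given in the sources used here, so reads of overlapping or antisense genes cannot be told apart, and near-identical copies of members could share reads. The pseudogene MTHFD2P1 is listed at 0 in every library. FPKM hold no counts, and the depth is unknown: of 9880 low values 27.4% lay within 0.15 of a whole multiple when the value of 1 read was estimated per library, and 26.5% when it was taken as equal, so whole reads were not recovered.

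Genes with FPKM of at least 1 in at least 3 libraries were kept. All 12 libraries entered a linear model of log2(FPKM + 1) in limma 3.58.1 and R 4.3.3, with a mean for each group and eBayes with trend, and with two-sided p-values adjusted by the Benjamini-Hochberg method over all 13840 genes and called under 0.05. Fold changes on this scale understate the change of low genes. On simulated data of the Jurkat comparison (13840 genes) the model was tested, and it called 40 of 40 genes with a log2 change of -2 and 25 of 40 with -0.5. It called 34 of 40 with 1, 23 of 40 with 0.5, and 8 of the 13640 genes without a change. In the real Jurkat comparison 56.3% of genes were called, far more than were changed in the simulation. The simulated rates therefore do not carry over to these data.

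The members and lists were chosen with earlier results of these data known. Named list genes were up to 3 called genes per direction, line and list with the largest change and a mean of at least 5 FPKM in the higher group. CBS, CTH, CHAC1, TRIB3 and DDIT3 in untreated Jurkat replicate 3, the levels of SPNS3, the EIF2AK genes, BCKDK and PPM1K were chosen after their values were seen. So were the Jurkat values of IVD, MCCC1, AHCY, GOT2, SLC7A1, GGH, ATF3 and CEBPB. Some genes that meet the rule are not reported here. Alternatives were a pseudocount of 0.1, no filter, FPKM of at least 5, median-of-ratios scaling, quantile normalization, equal totals without 7SL RNA, robust empirical Bayes, a replicate block, the groups compared alone, and each library left out, with the spread still pooled over groups. Protein sequences were not used here.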

Additional observations from a re-analysis of the deposited data

Results flagged for a closer look

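The response to chidamide differed between the lines for 4 members, by the test of the Molt-4 change minus the Jurkat change in limma, against 31.9% of all genes called in either direction and 19.8% called higher. BCAT1 differed by 0.86 (adjusted p = 0.00339), SHMT2 by 0.65 (adjusted p = 0.0147), BCAT2 by 0.34 (adjusted p = 0.00536) and ATF4 by 0.33 (adjusted p = 0.0395). The ATF4 call was lost in 12 of 20 alternatives (adjusted p over all of them between 0.00382 and 0.206). All were positive, since each fell less in Molt-4 or, for SHMT2, was called lower in Jurkat and not called in Molt-4. Groups of 3 libraries are too small for a test of single libraries that stand apart.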

How the results depend on the processing

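Of 272 counts of called genes under the alternatives, for 13 combinations of list and comparison, 265 were within 1.5 times the reported count. The count of members called between untreated lines was 3 with only the untreated libraries, against 7 reported, and 4 to 9 with 1 library left out. Between treated lines it was 8 with only the treated libraries, against 5 reported, and 2 to 8 with 1 library left out (2 without treated Molt-4 replicate 1, 3 without treated Jurkat replicate 3, 8 without untreated Jurkat replicate 3). For the list of ATF4 targets and stress response genes in Jurkat it was 10 with only the Jurkat libraries, against 18 reported. With 1 library left out the members called were 7 to 8 in Jurkat, 4 to 7 in Molt-4 and 3 to 6 for the difference of the responses. Apart from the shares given above, the share of all genes called under an alternative is not given here. Whether these changes in count are particular to the members was not tested.

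Signs turned only for differences that were not called in the fit of all libraries. With 1 library left out, ASNS in Jurkat ranged from -0.19 to 1.21 and SHMT2 in Molt-4 from -0.12 to 0.026. For the difference of the responses ASNS ranged from -1.34 to 0.059, PHGDH from -0.48 to 0.11, PSAT1 from -0.11 to 0.73 and PSPH from -0.032 to 0.42. The library whose absence gave the far end, apart from SHMT2, was untreated Jurkat replicate 3. Under quantile normalization SHMT2 in Molt-4 was 0.012 and ATF4 between treated lines -0.045. With equal totals without 7SL RNA, ASNS and ATF4 between treated lines were -0.015 and -0.039. The cause was not tested. Quantile normalization moved the median of all genes by -0.17 in Molt-4 and by -0.10 for the difference of the responses, and equal totals moved it by -0.14 between treated lines.

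The replicate numbers did not pair the libraries: of 18 same-numbered pairs across groups 0 had deviations that correlated above 0.1 (range -0.09 to 0.04), and 0 of 12 libraries correlated best with their own number. With the replicate number as a block 7 members were called in Jurkat, 6 in Molt-4 (PHGDH in addition, adjusted p = 0.0443), 4 for the difference of the responses, 7 between untreated and 5 between treated lines. The shares of all genes called with that block are not given here. Since sequencing depth is unknown, no limit from it can be stated.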

Other observations

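The balance of the first serine synthesis enzymes shifted with line and treatment. The ratio of PSAT1 to PHGDH in FPKM was 0.296, 0.311 and 0.329 in treated Molt-4 and 0.450, 0.471 and 0.481 in untreated Molt-4. It was 0.383, 0.400 and 0.373 in treated Jurkat and 0.817, 0.676 and 1.06 in untreated Jurkat. Treated and untreated libraries did not overlap in either line, and the ratio does not depend on the scaling of a library.

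Among the members, PSAT1 and PSPH varied most alike over the 12 libraries (Pearson r = 0.965 of log2(FPKM + 1)), followed by PSAT1 and MTHFD2 (0.960). ASNS correlated with no other member above 0.358, its value with PHGDH. These values describe 12 libraries of 4 groups and carry no test.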
